A study of Mus musculus with 6 samples.

Results

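The genes of central carbon metabolism described here carry glucose from uptake to lactate and carry pyruvate into the mitochondrion and around the tricarboxylic acid (TCA) cycle. They also make, use or exchange α-ketoglutarate. The group is a list of 48 named genes that was drawn up by function. Of the 22380 gene identifiers in each library, 48 were these genes, and all 48 passed the filter on low values, a mean of at least 10 normalized counts over the 6 lines.

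RNA was measured in 3 *Ctrl* and 3 *Tet iTKO* mouse embryonic stem cell (mESC) lines, each derived from a different blastocyst. Both groups carried a tamoxifen-inducible CreERT2 (wt/ki), driven by the human ubiquitin C promoter, and the nuclear green reporter allele Gt(ROSA)26Sor<tm1Ytchn>/J (wt/ki). *Tet iTKO* lines were also homozygous for floxed *Tet1*, *Tet2* and *Tet3* (fl/fl). All lines received 4-hydroxytamoxifen at 1 µM for 2.5 days and grew for 4 more days without it. *Ctrl* cells therefore also had active Cre and the drug. The passage of the paper's methods that gives the dose states a slightly shorter exposure. Lines grew in 2i medium, which inhibits MEK and GSK3, on fibroblast feeders, and live CD326+ GFP+ Thy1.2- cells were sorted at day 6.5. In bulk RNA of this kind, a lower value from fewer cells of a type cannot be told apart from less RNA per cell.

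Glycolysis splits glucose into pyruvate in the cytosol. Pyruvate is then reduced to lactate, or enters the mitochondrion, where pyruvate dehydrogenase makes the acetyl-CoA that the TCA cycle oxidizes. α-Ketoglutarate, made by isocitrate dehydrogenases and from glutamate, is a substrate of the TET dioxygenases and of the prolyl hydroxylases that mark hypoxia-inducible factors for breakdown, while succinate, fumarate and 2-hydroxyglutarate inhibit these enzymes.

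The deposited values are normalized counts, which are reads per gene divided by a size factor for the library and rounded. They summed to between 4210784 and 4219665 in *Ctrl* lines and between 3964824 and 3996522 in *Tet iTKO* lines, and the numbers of reads behind them were not estimated here. Whole-gene values do not isolate the floxed exons. *Tet1* stood at 696, 682 and 716 in *Ctrl* and 787, 895 and 753 in *Tet iTKO*, *Tet2* at 249, 170 and 230 against 233, 268 and 211, and *Tet3* at 28, 13 and 13 against 10, 3 and 3. The 8 markers of mESC summed to 11421 to 11783 in *Ctrl* and 10658 to 10975 in *Tet iTKO*, with 3 higher and 3 lower. The 10 markers of feeder fibroblasts summed to 348 to 360 and 547 to 605. Of the 6 feeder markers tested, the collagen genes *Col1a1*, *Col1a2* and *Col3a1* were higher and the other 3 were not called, and *Thy1* was 30, 46 and 41 against 47, 35 and 23. The part of feeder RNA in the results that follow was not tested. The sex chromosome markers that were listed, 4 of 5, are all Y-linked (*Ddx3y*, *Eif2s3y*, *Kdm5d* and *Uty*), and *Xist* was not listed. They summed to 615 to 652 in *Ctrl* and 388 to 398 in *Tet iTKO*. Only *Eif2s3y* was called, lower at 363, 344 and 375 against 182, 181 and 178 (limma adjusted p = 5.6e-09). Among the 48 genes, 4 are X-linked (*Pgk1*, *Pdha1*, *Pdk3* and *Idh3g*).

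To ask how RNA for this pathway differed after *Tet* deletion, limma was fitted to log2(normalized count + 1) for all 10524 genes tested, with p-values adjusted by Benjamini-Hochberg and a call at an adjusted p under 0.05. Of the 48 genes, 16 (33.3%) were higher in *Tet iTKO*, against 16.4% of all genes tested, and 9 (18.8%) were lower, against 18.4%. The other 23 were not called. The median log2 fold change was 0.05 for the 48 genes and 0.01 for all genes. In 30 of the 48 (62.5%) the lines of the groups did not overlap, against 44.1% of all genes, 18 with every *Tet iTKO* line above every *Ctrl* line (21.2% of all genes) and 12 below (22.9%). Most of the 48 are well expressed. Among the 4590 genes with a mean from 173 to 14168, the range from the tenth percentile of these genes to their highest, 17.1% were higher and 31.8% were lower.

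**Figure D1:**
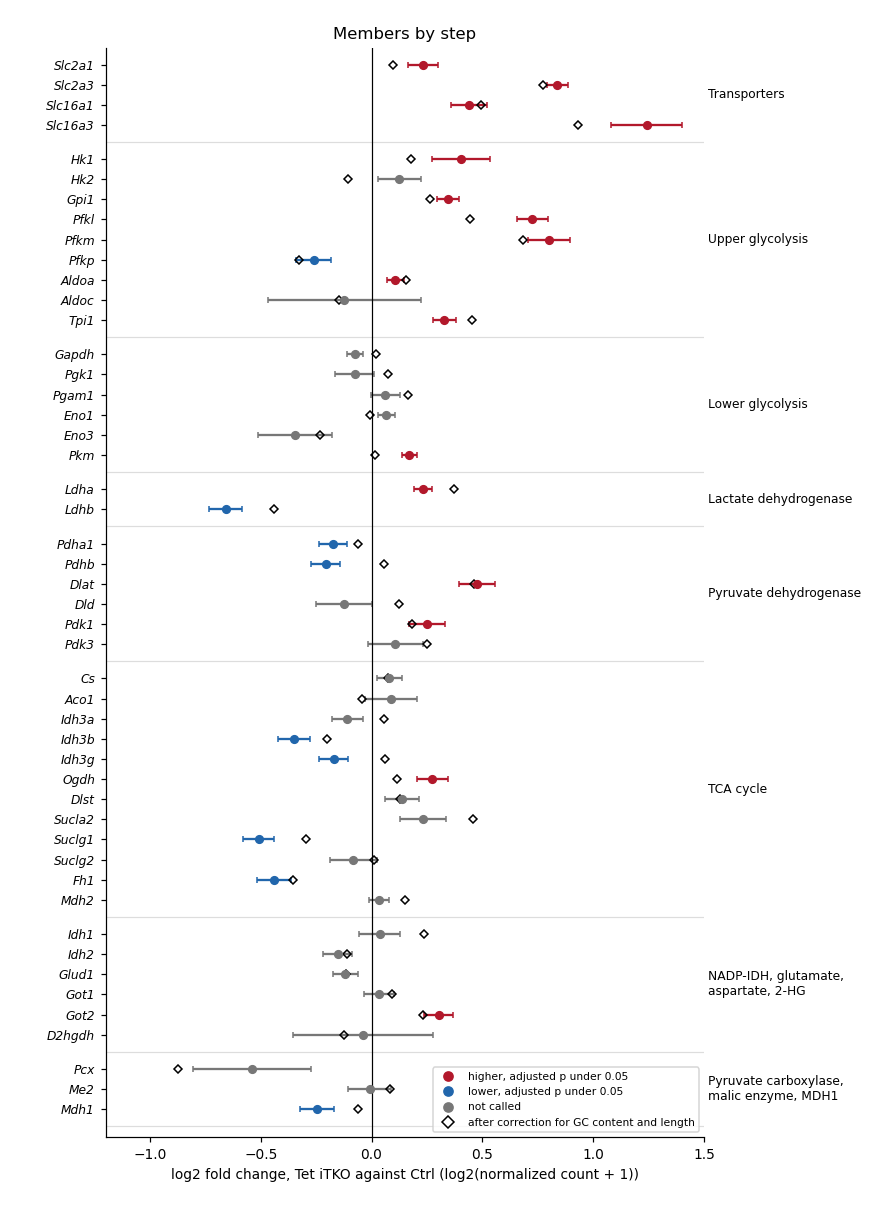
Log2 fold change (*Tet iTKO* minus *Ctrl*) of each of the 48 genes, ordered by step, with the standard error from limma, color for the call and an open diamond for the value corrected for length and GC content. Genes of glucose uptake and upper glycolysis lie mostly to the right of 0, with *Slc16a3* farthest at 1.24, and *Ldhb* lies farthest to the left at -0.66.

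The calls were counted along the pathway. From glucose uptake to lactate, 12 of 21 genes were higher (57.1%) and 2 were lower (9.52%), with a median log2 fold change of 0.17. Of all genes tested, 16.4% were higher and 18.4% lower. From pyruvate dehydrogenase through the TCA cycle to the glutamate, aspartate and anaplerotic enzymes, 4 of 27 were higher (14.8%) and 7 were lower (25.9%). Of the 4590 genes of like level, 17.1% were higher and 31.8% lower. For these 27 genes the median was -0.04, and the balance depended on the scaling described next. Few of the changes were large. With a log2 fold change of at least 0.5 also asked, 4 of the 48 were higher (*Slc16a3*, *Slc2a3*, *Pfkm* and *Pfkl*), against 10.2% of all genes, and 2 were lower (*Ldhb* and *Suclg1*), against 7.92%.

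Fold changes across all genes moved with transcript length and GC content. The median log2 fold change rose from -0.35 in the decile of genes with the shortest transcripts to 0.24 in the longest decile, and from -0.14 at the lowest GC content to 0.25 at the highest. The 16 members that were higher had a median transcript of 3495 bases and the 9 that were lower had one of 1616 bases, against 2960 for all genes. Each gene's value was therefore also fitted after a loess correction of each library for both properties. After it, 15 members were higher (12.5% of all genes) and 6 were lower (13.3%). Of those first called, 11 of 16 stayed higher and 5 of 9 stayed lower, and 0 were called in the opposite direction. Quantile normalization called 22 higher and 5 lower, where 17.2% and 16.6% of all genes were called. From glucose uptake to lactate, the correction called 10 of 21 genes higher and 2 lower, with a median of 0.15, and quantile normalization called 14 and 1. Among the 27 mitochondrial, glutamate and anaplerotic genes, the correction called 5 higher and 4 lower, with a median of 0.06. Quantile normalization called 8 and 4, so the excess of lower over higher calls and the negative median were not kept.

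**Figure D2:**
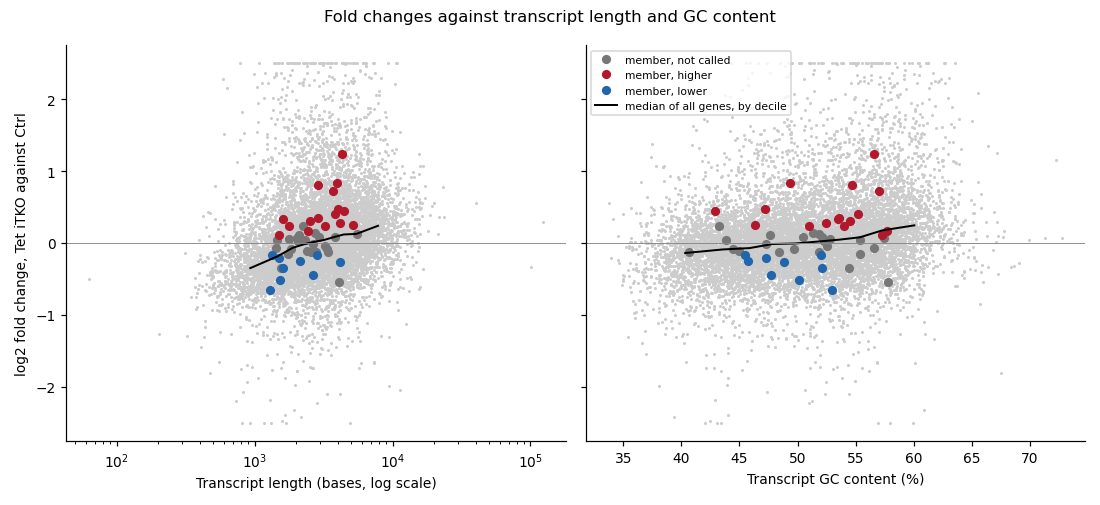
Log2 fold change (*Tet iTKO* minus *Ctrl*) of all genes tested against transcript length (log axis) and GC content, with all genes in light gray, the 48 genes as large dots by call, a black line for the median of all genes by decile, and values beyond 2.5 in size drawn at that limit. The median rises from -0.35 to 0.24 with length and from -0.14 to 0.25 with GC content.

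All 4 transporters were higher in *Tet iTKO*. *Slc2a3* (chr6:122727809-122801640, GRCm38), which encodes the high-affinity glucose transporter GLUT3, had normalized counts of 2267, 2245 and 2205 in the *Ctrl* lines and of 3960, 4053 and 3994 in the *Tet iTKO* lines. The *Tet iTKO* lines lay far above the *Ctrl* lines, with little spread in either group. The means were 2239 ± 31.4 and 4002 ± 47.1 (SD, n = 3), a 1.79-fold difference that came to 0.84 ± 0.05 on the log2 scale (SE, limma adjusted p = 3.3e-16). The correction left it at 0.77. *Slc2a1*, encoding the widely used glucose transporter GLUT1, was at 903, 863 and 950 against 1118, 1023 and 1054. Its groups did not overlap, but the difference was small, at 0.23 ± 0.07 (limma adjusted p = 0.0062), and after correction it was 0.10 (limma adjusted p = 0.30).

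The monocarboxylate transporters, which move lactate and pyruvate with a proton, were both higher. *Slc16a3* (MCT4; chr11:120948480-120960868), the form usual in cells that export much lactate, had the largest fold change of the 48 genes. It was at 87, 76 and 90 in *Ctrl* and 182, 217 and 203 in *Tet iTKO*. Every *Tet iTKO* line had more than every *Ctrl* line by a wide margin. On the log2 scale it was higher by 1.24 ± 0.16 (limma adjusted p = 8.9e-08), or 2.38-fold, and by 0.93 after correction. *Slc16a1* (MCT1) was at 659, 568 and 517 against 748, 819 and 791, a rise of 0.44 ± 0.08 on the log2 scale (limma adjusted p = 5.6e-05) that stood at 0.49 after correction. *Slc16a3* nonetheless stayed one of the lowest of the 48 in *Ctrl* per length, at 19.5 ± 1.70 normalized counts per kb of transcript, against 131 ± 16.3 for *Slc16a1*.

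**Figure D3:**
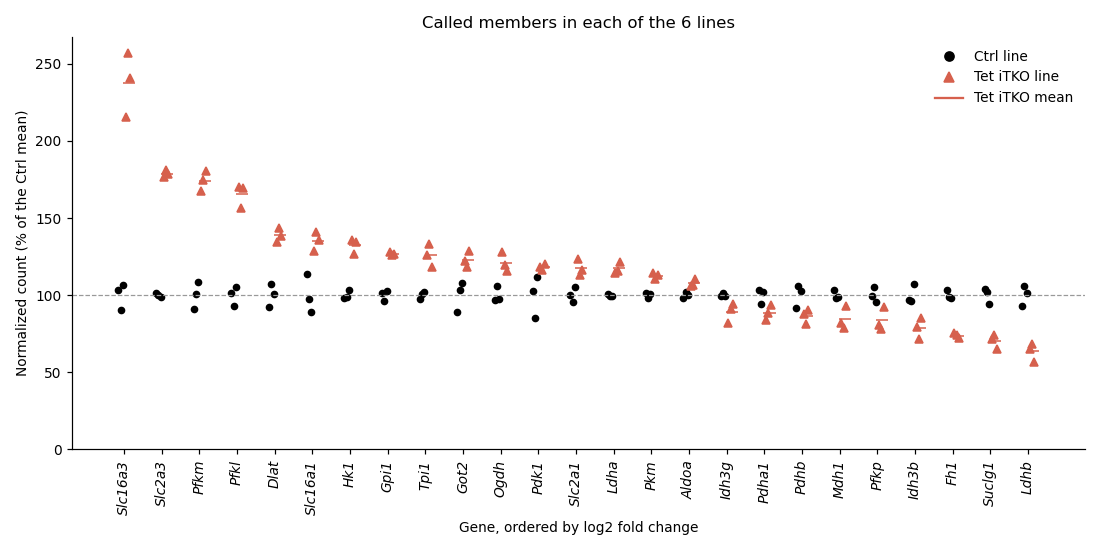
Normalized counts of the 25 called genes in each of the 6 lines, as a percentage of the mean of the *Ctrl* lines (dashed line), with circles for *Ctrl* lines, triangles for *Tet iTKO* lines and a short line for the *Tet iTKO* mean. The groups do not overlap in any of the 25, and the *Tet iTKO* mean runs from 238% of *Ctrl* in *Slc16a3* to 63.4% in *Ldhb*.

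In upper glycolysis, 6 of 9 genes were higher (66.7%) and 1 was lower (11.1%), against 16.4% and 18.4% of all genes. The subunits of phosphofructokinase, the committed and most regulated step, did not move together. *Pfkl*, the liver-type subunit (chr10:77986947-78010083), was at 729, 668 and 756 in *Ctrl* and 1220, 1125 and 1215 in *Tet iTKO*. *Pfkm*, the muscle-type subunit (chr15:98092589-98132451), was at 279, 307 and 331 against 512, 533 and 551. *Pfkp*, the platelet-type subunit (chr13:6579768-6648777), was at 727, 774 and 699 against 593, 570 and 676. All *Tet iTKO* lines were above *Ctrl* for *Pfkl* and *Pfkm* and below it for *Pfkp*, with *Tet iTKO* replicate 3 close to *Ctrl* replicate 3 in the last. The log2 fold changes were 0.73 ± 0.07 for *Pfkl* (limma adjusted p = 1.9e-10), 0.80 ± 0.09 for *Pfkm* (limma adjusted p = 1.5e-08) and -0.26 ± 0.08 for *Pfkp* (limma adjusted p = 0.0095). After correction they were 0.44, 0.68 and -0.33. The fall of *Pfkp* was not called with quantile normalization (limma adjusted p = 0.094), nor without *Ctrl* replicate 2 (limma adjusted p = 0.065) or *Tet iTKO* replicate 2 (limma adjusted p = 0.073). *Pfkp* also overlaps exons of *Pitrm1* on the opposite strand, with a mean of 720, and *Pfkm* those of *Senp1*, with a mean of 240, and Smart-Seq2 reads carry no strand to tell them apart.

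Per kb of transcript, *Pfkl* made up 40.5% ± 2.21 (SD, n = 3) of the RNA for the 3 phosphofructokinase subunits in *Ctrl* and 48.9% ± 1.39 in *Tet iTKO*. The share of *Pfkm* was 22.3% ± 1.48 and 28.4% ± 1.13, and that of *Pfkp* was 37.2% ± 2.43 and 22.7% ± 1.11. The groups did not overlap in any of these shares.

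Among the other enzymes of this stage, *Gpi1*, the glucose-6-phosphate isomerase, was at 2534, 2409 and 2568 against 3211, 3148 and 3176, with every *Tet iTKO* line higher. *Tpi1*, the triose phosphate isomerase, was at 1941, 1996 and 2024 against 2500, 2649 and 2347, also without overlap. The limma fits gave 0.34 ± 0.05 for *Gpi1* (adjusted p = 6.1e-07) and 0.33 ± 0.05 for *Tpi1* (adjusted p = 7.5e-06), and after correction 0.26 and 0.45. Of the hexokinases, which trap glucose by phosphorylation, *Hk1* was at 154, 155 and 163 against 214, 199 and 212. The groups stood apart at 0.40 ± 0.13 (limma adjusted p = 0.016), but not after correction (0.18, limma adjusted p = 0.35) or without *Tet iTKO* replicate 3 (limma adjusted p = 0.053). *Hk2*, the form most abundant per kb, was at 373, 397 and 341 against 430, 392 and 389. These lines overlapped, and the log2 fold change was 0.13 (limma adjusted p = 0.33).

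The aldolase *Aldoa* was at 8980, 9374 and 9141 against 9712, 9783 and 10115. The groups did not overlap, but the rise was only 0.11 ± 0.04 (limma adjusted p = 0.023). That call was lost without *Ctrl* replicate 1 (limma adjusted p = 0.062), *Ctrl* replicate 3 (limma adjusted p = 0.056) or *Tet iTKO* replicate 3 (limma adjusted p = 0.12). *Aldoc*, a second aldolase at low level, varied from 17 to 52 among *Tet iTKO* lines and from 33 to 39 among *Ctrl* lines and was not called.

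Lower glycolysis, which recovers ATP, showed little difference in the main fit, while quantile normalization called 3 of its 6 genes higher. It held 3 of the 4 genes with the highest level per length. *Gapdh* was the highest of the 48 genes per length in *Ctrl*, at 7520 ± 69.4 normalized counts per kb, followed by *Aldoa* at 6066 ± 131, *Pkm* at 5482 ± 95.4 and *Eno1* at 4888 ± 138. Only *Pkm*, encoding pyruvate kinase, was called among the 6 genes of this stage (16.7% higher, against 16.4% of all genes). It was at 13508, 13069 and 13419 in *Ctrl* and 15229, 14729 and 15052 in *Tet iTKO*. The *Tet iTKO* lines were all higher, by 0.17 ± 0.03 on the log2 scale (limma adjusted p = 0.00015), but after correction the value was 0.02 (limma adjusted p = 0.75), and with a loess that is not robust it was called lower, at -0.11. Quantile normalization called *Pkm* higher, at 0.26 (limma adjusted p = 3.8e-08).

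*Gapdh*, often used as a reference gene, was at 10770, 10691 and 10574 against 9953, 10275 and 10196. Every *Tet iTKO* line was lower, at -0.07 ± 0.04 on the log2 scale (limma adjusted p = 0.11), while quantile normalization gave 0.08 (limma adjusted p = 0.071) and the correction 0.02 (limma adjusted p = 0.76). It was called lower with trimmed-mean scaling (-0.10, limma adjusted p = 0.032) and with the loess that is not robust (-0.09, limma adjusted p = 0.044), so its direction depended on the scaling. *Pgk1*, *Pgam1*, *Eno1* and *Eno3* had log2 fold changes of -0.08, 0.06, 0.07 and -0.35 and none was called. *Pgam1* was higher after correction, at 0.16 (limma adjusted p = 0.043). Quantile normalization called *Pgam1* (0.17, limma adjusted p = 0.032) and *Eno1* (0.20, limma adjusted p = 1.2e-05) higher. *Eno3* was called lower without *Ctrl* replicate 3 (-0.45, limma adjusted p = 0.049) or *Tet iTKO* replicate 1 (-0.53, limma adjusted p = 0.027). Unique alignment limits these values. Of the 50-base windows of the transcript, 82.5% in *Gapdh*, 72.2% in *Eno1* and 68.0% in *Pgk1* also occur in another annotated gene. Over all 48 genes, 13 had more than 10% of windows shared and 30 had 0.

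The lactate dehydrogenase subunits moved in opposite directions. *Ldha* (chr7:46841475-46855627), the subunit that favors lactate formation, was at 5948, 5885 and 5883 in *Ctrl* and 6769, 6842 and 7189 in *Tet iTKO*. *Ldhb* (chr6:142490249-142507957), the subunit that favors lactate oxidation, was at 966, 1097 and 1048 against 674, 710 and 589. All *Tet iTKO* lines were above *Ctrl* for *Ldha* and below it for *Ldhb*. The log2 fold changes were 0.23 ± 0.04 for *Ldha* (limma adjusted p = 2.2e-05) and -0.66 ± 0.08 for *Ldhb* (limma adjusted p = 1.0e-08), and after correction 0.37 and -0.44. With no trend in the variance fitted, *Ldha* was not called (limma adjusted p = 0.075). Per kb, *Ldhb* made up 19.2% ± 1.08 of the sum of the pair in *Ctrl* and 11.4% ± 1.24 in *Tet iTKO*. Windows shared with other genes came to 27.0% for *Ldhb* and 17.1% for *Ldha*.

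The promoters of the 48 genes were searched for ACGTG on either strand (CACGT on the other). ACGTG is a form of the core that hypoxia-inducible factors bind and also part of the palindromic CACGTG E-box of MYC and MAX. The windows were the 250 bases before each RefSeq start (GRCm38.p6), and 45 of the 48 genes had at least 1. ACGTG was in 16 of 45 members (35.6%), against 18.5% of all 27025 genes with a window. It was in 8 of 15 members that were higher (53.3%), 3 of 9 that were lower (33.3%) and 5 of 21 that were not called (23.8%). A gene counted if any of its windows held a match, and these groups had 29, 9 and 26 windows. The higher members *Ogdh* and *Pfkm* had 6 and 4 of them. By window, ACGTG was in 51.7%, 33.3% and 19.2%, against 16.6% of all 32851 windows. Promoters rich in CpG hold ACGTG more often: it was in 39.0% of members and 27.3% of all genes with a window of at least 10 CpG. Other motifs searched were also more frequent in windows of members than in all windows. The SP1 motif GGGCGG was in 54.7% against 32.7%, CCAAT in 40.6% against 33.8%, CACGTG in 10.9% against 6.02% and the NRF1 motif in 4.69% against 3.74%. CCAAT was in 24.1% of windows of higher, 66.7% of lower and 50.0% of not called members. The lactate dehydrogenase pair is shown because its subunits moved apart, and *Slc16a3* and *Slc2a1* as transporters that hold ACGTG. The windows, with ACGTG or CACGT in capitals, were picked and do not stand for the members as a set. *Slc16a1* also holds ACGTG and is not shown, and *Slc2a3* had no window. The higher members *Hk1*, *Gpi1*, *Pfkl*, *Tpi1*, *Dlat*, *Pdk1* and *Got2* lack ACGTG, and the lower members *Pdhb*, *Idh3g* and *Mdh1* hold it. *Ldha* has a second window, at chr7:46846832-46847081 (plus strand), with 0 matches. The windows printed are chr7:46845554-46845803 (plus strand) for *Ldha*, with 5 matches on both strands together, chr6:142507958-142508207 (minus strand) for *Ldhb*, with 0, chr11:120948817-120949066 (plus strand) for *Slc16a3*, with 2, and chr4:119108495-119108744 (plus strand) for *Slc2a1*, with 1. A match of these letters is a description of the sequence and no measure of binding.
Ldha: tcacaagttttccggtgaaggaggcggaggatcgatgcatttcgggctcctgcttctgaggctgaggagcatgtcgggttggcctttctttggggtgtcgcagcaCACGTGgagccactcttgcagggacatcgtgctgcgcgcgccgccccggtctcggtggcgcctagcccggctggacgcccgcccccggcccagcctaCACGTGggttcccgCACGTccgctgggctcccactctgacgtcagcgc
Ldhb: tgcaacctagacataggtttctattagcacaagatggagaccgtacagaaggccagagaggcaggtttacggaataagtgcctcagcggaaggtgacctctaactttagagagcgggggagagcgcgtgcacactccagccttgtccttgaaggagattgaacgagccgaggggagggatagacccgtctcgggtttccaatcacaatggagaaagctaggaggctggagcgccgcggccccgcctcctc
Slc16a3: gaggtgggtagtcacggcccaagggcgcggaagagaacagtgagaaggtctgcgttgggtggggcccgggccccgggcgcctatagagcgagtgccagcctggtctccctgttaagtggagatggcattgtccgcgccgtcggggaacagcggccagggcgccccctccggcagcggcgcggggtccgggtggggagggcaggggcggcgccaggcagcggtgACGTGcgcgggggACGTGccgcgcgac
Slc2a1: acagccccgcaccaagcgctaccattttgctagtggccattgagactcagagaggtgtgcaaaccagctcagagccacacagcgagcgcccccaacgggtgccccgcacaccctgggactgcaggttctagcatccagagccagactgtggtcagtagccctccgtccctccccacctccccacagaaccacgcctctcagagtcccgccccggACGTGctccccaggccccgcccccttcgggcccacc

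In 13 pairs of enzymes or transporters that serve the same step or the same reaction in different compartments, the log2 ratio was compared line by line. The lines of the groups did not overlap in 6 of the 13 pairs. Among single genes, 44.1% of all those tested did not overlap, and no such share was computed for other pairs of genes. The ratio of *Pfkl* to *Pfkp* was 0.99 higher in *Tet iTKO* on the log2 scale, that of *Slc16a3* to *Slc16a1* was 0.80 higher, that of *Slc2a3* to *Slc2a1* 0.60 higher and that of *Mdh2* to *Mdh1* 0.28 higher. The differences for *Hk2* to *Hk1* and *Ldhb* to *Ldha* were -0.28 and -0.89. For *Ldhb* to *Ldha*, the log2 ratio was -2.62, -2.42 and -2.49 in *Ctrl* and -3.33, -3.27 and -3.61 in *Tet iTKO*, so the *Tet iTKO* lines all lay below the *Ctrl* lines. Each of the 6 gave p = 0.1 in an exact two-sided permutation test, which is the smallest that 3 lines against 3 allow, and 0.217 after adjustment over the 13 pairs. The 6 pairs were without overlap in the same direction after correction as well. In the other 7 pairs the lines overlapped.

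**Figure D4:**
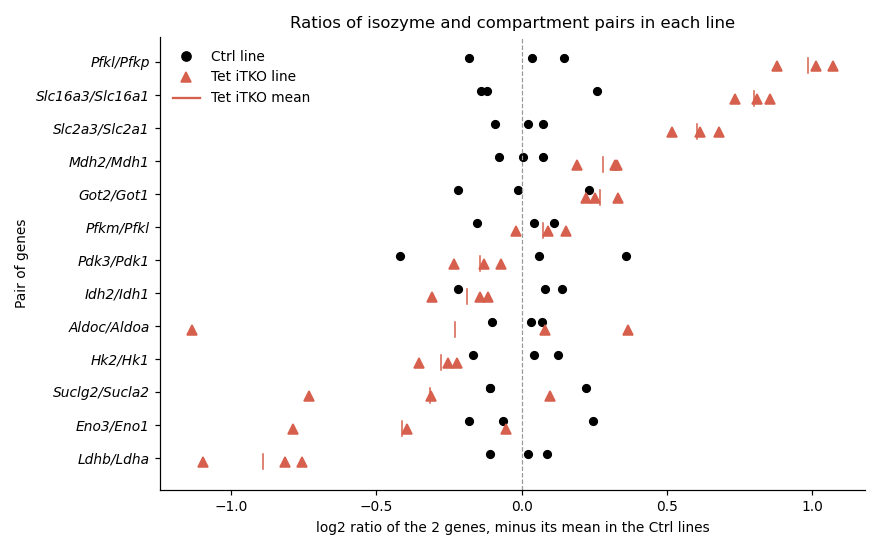
Log2 ratio of normalized counts for each of the 13 pairs, with 1 point per line (circles for *Ctrl*, triangles for *Tet iTKO*) and a tick for the *Tet iTKO* mean, set relative to the mean of the *Ctrl* lines of that pair. *Tet iTKO* points lie wholly above *Ctrl* for *Pfkl*/*Pfkp*, at a difference of 0.99, and wholly below it for *Ldhb*/*Ldha*, at -0.89.

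At the entry to the mitochondrion, the subunits of the pyruvate dehydrogenase complex differed in direction. *Dlat*, the acetyltransferase core (chr9:50634633-50659780), was at 465, 540 and 507 in *Ctrl* and 679, 724 and 697 in *Tet iTKO*, without overlap. It was higher by 0.48 ± 0.08 on the log2 scale (limma adjusted p = 1.4e-05), and by 0.46 after correction. *Pdha1* and *Pdhb*, the subunits of the decarboxylase, were lower. *Pdha1* was at 1272, 1162 and 1254 against 1032, 1088 and 1150, and *Pdhb* at 1194, 1382 and 1338 against 1147, 1058 and 1181. Their groups touched closely, and the log2 fold changes were -0.17 ± 0.06 (limma adjusted p = 0.034) and -0.21 ± 0.07 (limma adjusted p = 0.013). After correction they were -0.06 and 0.05 and were not called. Without single lines the call for *Pdha1* was lost in 4 of 6 fits (without *Ctrl* replicate 1 or 3 or *Tet iTKO* replicate 1 or 2, limma adjusted p from 0.079 to 0.15), and that for *Pdhb* without *Ctrl* replicate 2 (limma adjusted p = 0.099), *Ctrl* replicate 3 (limma adjusted p = 0.050) or *Tet iTKO* replicate 2 (limma adjusted p = 0.098). *Dld*, the shared dihydrolipoamide dehydrogenase, was not called.

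The kinases that inactivate pyruvate dehydrogenase gave 1 call. *Pdk1* was at 664, 552 and 725 against 764, 753 and 779. The *Ctrl* lines spread widely below the *Tet iTKO* lines, at a difference of 0.25 ± 0.08 on the log2 scale (limma adjusted p = 0.016). It was not called after correction (0.18, limma adjusted p = 0.093), and without *Ctrl* replicate 2 the value was 0.14 (limma adjusted p = 0.21). Without *Tet iTKO* replicate 3 the adjusted p from limma was 0.063. *Pdk3* was at 245, 251 and 192 against 230, 244 and 263, with overlap and no call.

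In the TCA cycle, 4 of 12 genes were lower (33.3%, against 18.4% of all genes), 1 was higher (8.33%, against 16.4%) and 7 were not called. This balance also depended on the scaling, with 2 higher and 3 lower after correction, where the median log2 fold change moved from -0.02 to 0.06, and 5 higher and 3 lower with quantile normalization. *Suclg1*, the shared α subunit of succinyl-CoA synthetase (chr6:73248382-73276911), was at 1169, 1145 and 1060 in *Ctrl* and 807, 835 and 730 in *Tet iTKO*. Fumarate hydratase, *Fh1* (chr1:175600374-175625635), was at 759, 728 and 721 against 554, 543 and 530. Neither gene's groups came near each other. The log2 fold changes were -0.51 ± 0.07 for *Suclg1* (limma adjusted p = 3.7e-07) and -0.44 ± 0.08 for *Fh1* (limma adjusted p = 2.0e-05), and -0.30 and -0.35 after correction. The partner subunits of *Suclg1* did not follow it. The ATP-forming *Sucla2* was at 333, 362 and 296 against 444, 368 and 355, a difference of 0.23 ± 0.10 on the log2 scale (limma adjusted p = 0.082), which rose to 0.46 after correction (limma adjusted p = 0.00060) and was also called without *Ctrl* replicate 2 (limma adjusted p = 0.0496). The GTP-forming *Suclg2* was at 388, 422 and 434 against 336, 373 and 478 and was not called.

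NAD-linked isocitrate dehydrogenase, the mitochondrial enzyme that makes α-ketoglutarate in the cycle, had all 3 subunits measured. *Idh3b* was at 1048, 1042 and 1166 against 859, 774 and 923. *Idh3g* was at 1257, 1278 and 1254 against 1034, 1147 and 1191. The catalytic *Idh3a* was at 849, 871 and 858 against 804, 753 and 835. Every *Tet iTKO* line was below every *Ctrl* line for all 3, and limma called *Idh3b* (-0.35 ± 0.07, adjusted p = 0.00019) and *Idh3g* (-0.17 ± 0.06, adjusted p = 0.036) but not *Idh3a* (-0.11 ± 0.07, adjusted p = 0.24). After correction *Idh3b* was -0.20 (limma adjusted p = 0.030), *Idh3g* was 0.06 and *Idh3a* was 0.06. With no trend in the variance fitted, *Idh3b* was not called (limma adjusted p = 0.061). The call of *Idh3g* was lost in 5 of 6 fits that left out a line, all but that without *Tet iTKO* replicate 3, with adjusted p from limma up to 0.22, and *Idh3b* overlaps exons of the abundant *Nop56* on the opposite strand, with a mean of 2105.

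*Ogdh*, the first subunit of the complex that consumes α-ketoglutarate, was at 766, 835 and 771 in *Ctrl* and 1012, 943 and 915 in *Tet iTKO*. The groups did not overlap, and it was higher by 0.27 ± 0.07 (limma adjusted p = 0.0023), but by only 0.11 after correction (limma adjusted p = 0.24). *Dlst*, its succinyltransferase core, was at 694, 638 and 677 against 745, 769 and 696, a difference of 0.14 on the log2 scale (limma adjusted p = 0.16). *Cs* and *Aco1*, encoding citrate synthase and cytosolic aconitase, and *Mdh2*, the mitochondrial malate dehydrogenase, had log2 fold changes of 0.08, 0.09 and 0.04. None was called, though quantile normalization called *Cs* (0.21, limma adjusted p = 0.0038) and *Dlst* (0.23, limma adjusted p = 0.019) higher, and *Mdh2* was higher after correction at 0.15 (limma adjusted p = 0.0070).

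The enzymes that make α-ketoglutarate outside the NAD-linked step showed 1 call among 6 (16.7% higher, against 16.4% of all genes). *Got2*, the mitochondrial aspartate aminotransferase, was at 1153, 1343 and 1397 against 1586, 1531 and 1671. It was higher in every *Tet iTKO* line, by 0.30 ± 0.07 (limma adjusted p = 0.00035), and by 0.23 after correction. With no trend in the variance fitted, *Got2* was not called (limma adjusted p = 0.089). Its cytosolic counterpart *Got1* was at 973, 981 and 862 against 986, 931 and 962, with overlap and a log2 fold change of 0.03. *Idh1*, the cytosolic NADP-linked isocitrate dehydrogenase, was at 576, 452 and 453 against 464, 513 and 534, and its log2 fold change of 0.04 became 0.24 after correction (limma adjusted p = 0.047). *Idh2*, the mitochondrial form, was at 1200, 1208 and 1161 against 1038, 1127 and 1046. Here the groups did not overlap, but at -0.15 ± 0.06 the difference was not called (limma adjusted p = 0.059) except without *Tet iTKO* replicate 2 (limma adjusted p = 0.045).

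*Glud1*, the glutamate dehydrogenase, was at 2044, 1928 and 1848 against 1858, 1713 and 1785 and was not called (-0.12, limma adjusted p = 0.098). *D2hgdh*, which turns D-2-hydroxyglutarate back into α-ketoglutarate, was the lowest of the 48 genes per length, at 11.9 ± 0.357 normalized counts per kb in *Ctrl*. Its values of 39, 37 and 39 in *Ctrl* lay inside the range set by 23, 51 and 44 in the *Tet iTKO* lines. With a standard error of 0.32 on a log2 fold change of -0.04, a change of modest size could not be detected in this gene.

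Of the genes that refill or drain the cycle, *Mdh1*, the cytosolic malate dehydrogenase, was at 807, 767 and 769 against 638, 616 and 727. All *Tet iTKO* lines were lower, at -0.25 ± 0.08 on the log2 scale (limma adjusted p = 0.012), but the call was lost after correction (-0.06, limma adjusted p = 0.61) and without *Tet iTKO* replicate 2 (limma adjusted p = 0.083). *Pcx*, the pyruvate carboxylase, was at 65, 51 and 72 against 32, 54 and 44 and was not called (-0.54 ± 0.27, limma adjusted p = 0.12). After correction it was called lower, at -0.87 (limma adjusted p = 0.012). *Me2*, a mitochondrial malic enzyme, was at 392, 347 and 398 against 374, 354 and 402 and did not pass the test (-0.01, limma adjusted p = 0.96).

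The wider pathway was read from lists of genes outside the 48. Of 11 other genes of glycolysis and glucose transport tested, among 27 listed, 1 was higher (9.09%) and 2 were lower (18.2%). Among all genes tested, 16.4% were higher and 18.4% were lower. The listed genes that were not tested had means under 10. Of these, *Eno2* was at 1, 1 and 1 in *Ctrl* and 18, 13 and 14 in *Tet iTKO*. *Ldhc* was at 8, 13 and 10 against 1, 1 and 4. The groups overlapped in neither, at values near the floor. *Tigar*, a fructose-2,6-bisphosphatase that slows phosphofructokinase, was at 475, 475 and 565 in *Ctrl* and 340, 313 and 340 in *Tet iTKO*, a difference of -0.60 ± 0.10 on the log2 scale (limma adjusted p = 4.0e-06). Every *Tet iTKO* line was well below *Ctrl*. The muscle phosphoglycerate mutase *Pgam2* was low, at 15, 4 and 13 against 28, 24 and 36 (1.53 ± 0.48, limma adjusted p = 0.012), and its call was lost without *Ctrl* replicate 2 (limma adjusted p = 0.082) or *Tet iTKO* replicate 3 (limma adjusted p = 0.076).

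Of 13 other genes of pyruvate entry and the TCA cycle tested, 0 were higher and 5 (38.5%) were lower by limma. Over all genes these shares were 16.4% and 18.4%. Those lower included the mitochondrial pyruvate carrier subunits *Mpc1* (43, 41 and 22 against 12, 16 and 17) and *Mpc2* (87, 87 and 111 against 55, 64 and 53). Their log2 fold changes were -1.14 ± 0.40 and -0.71 ± 0.21. Both lay lower in every *Tet iTKO* line, but neither was called after correction (limma adjusted p = 0.21 and 0.15). The call of *Mpc1* was lost without *Ctrl* replicate 1 (limma adjusted p = 0.11), *Ctrl* replicate 2 (limma adjusted p = 0.10) or *Tet iTKO* replicate 1 (limma adjusted p = 0.076), and that of *Mpc2* without *Ctrl* replicate 3 (limma adjusted p = 0.059). Succinate dehydrogenase sits between succinyl-CoA synthetase and fumarate hydratase. Its iron-sulfur subunit *Sdhb* was at 1030, 1058 and 1027 against 689, 716 and 676. The groups were far apart at -0.58 ± 0.07 (limma adjusted p = 1.8e-08), and -0.36 after correction (limma adjusted p = 7.3e-05), the only 1 of the 5 still called. Of its other subunits, which were named after their values were seen, *Sdhd* was lower (-0.32 ± 0.06, limma adjusted p = 4.8e-05), though at -0.02 after correction (limma adjusted p = 0.87), and *Sdha* (0.11, limma adjusted p = 0.23) and *Sdhc* (-0.06, limma adjusted p = 0.62) were not called.

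Of 22 other genes of α-ketoglutarate, glutamine and anaplerosis tested, 7 were higher (31.8%) and 4 were lower (18.2%). Over all genes these shares were 16.4% and 18.4%. The glutamine carrier *Slc1a5* was at 1089, 1132 and 1040 against 1571, 1485 and 1558 (0.50 ± 0.06, limma adjusted p = 3.3e-08). The cytosolic malic enzyme *Me1* was at 150, 177 and 168 against 133, 106 and 97 (-0.56 ± 0.16, limma adjusted p = 0.0054). The groups overlapped in neither. Of 18 hypoxia regulators and targets outside the 48, 4 were higher (22.2%) and 2 were lower (11.1%), against 16.4% and 18.4% of all genes. The collagen prolyl hydroxylase *P4ha1* was at 35, 50 and 23 against 78, 61 and 50 (0.83 ± 0.29, limma adjusted p = 0.024) and the mitochondrial protein *Higd1a* at 314, 292 and 254 against 172, 194 and 242 (-0.51 ± 0.13, limma adjusted p = 0.0018). *P4ha1* was not called without *Ctrl* replicate 3 (limma adjusted p = 0.14), *Tet iTKO* replicate 1 (limma adjusted p = 0.15) or *Tet iTKO* replicate 2 (limma adjusted p = 0.063).

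In all 17 alternative fits, 11 of the 25 calls held. The 8 held higher were *Slc2a3*, *Slc16a1*, *Slc16a3*, *Gpi1*, *Pfkl*, *Pfkm*, *Tpi1* and *Dlat*, and the 3 held lower were *Ldhb*, *Suclg1* and *Fh1*.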

How the data were processed

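The authors made Smart-Seq2 libraries from poly(A) RNA of the 6 lines and sequenced both ends for 50 bases. They kept unique STAR alignments, counted reads with HTSeq 0.7.1 with its strand option on, although Smart-Seq2 does not mark strand, and normalized with DESeq2 1.26.0 in R 3.5.2; the submitters' processing notes name mm9. The deposited values, in the unit score, are the authors' normalized counts rounded to whole numbers and not read counts, so no count model was fitted. Each library lists 22380 identifiers. GENCODE M21 (GRCm38) paired 20775 with a symbol, and positions, lengths and GC content were taken from its principal transcripts.

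Genes with a mean of at least 10 were compared by limma 3.58.1 in R 4.3.3 (eBayes with a trend) on log2(value + 1), 3 *Ctrl* against 3 *Tet iTKO* lines, without covariates and with Benjamini-Hochberg adjustment. Fold changes are on that scale, which understates changes of low genes. Ratios were compared with exact permutation tests. Libraries were also corrected for GC content and length by robust loess (span 0.3), with a loess that is not robust added after the data were seen. Other alternatives were a pseudocount of 0.5 or 4, no filter or a mean of at least 50, trimmed-mean and quantile scaling, no trend, a replicate block and each line left out. Scripts were tested on simulated data. Tables were handled with Python 3.11.15, pandas 2.3.3 and SciPy 1.17.1.

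All 48 genes are named, called ones with every line's value, and genes of the wider lists where called with a log2 fold change of at least 0.5. *Eno2* and *Ldhc*, under the filter, were named after their values were seen. The members and lists were chosen with earlier results of these data known.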

Additional observations from a re-analysis of the deposited data

How the results depend on the processing

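Among the 48 genes, the 16 calls higher and 9 lower became 9 and 3 without the trend in the variance, 4 and 2 with a log2 fold change of at least 0.5 asked, and 22 and 5 with quantile normalization. A loess correction that is not robust, chosen after the data were seen, called 10 higher and 11 lower, which turns the balance around, and 978 genes higher against 2003 lower over the whole table (1731 and 1934 uncorrected). With a line left out, 13 to 16 were higher and 5 to 9 were lower, the 5 without *Tet iTKO* replicate 2. The cause of these moves was not tested.

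No pairing of the lines by replicate number was seen, though the values cannot tell whether same-numbered lines shared an experiment. Deviations of same-numbered lines correlated at -0.0054 to 0.00071, and 0 of 6 lines correlated best with their own number. A replicate block called 16 higher and 10 lower, adding *Idh2*.

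Some log2 fold changes changed sign. The correction gave *Hk2* -0.11, *Gapdh* 0.018, *Pgk1* 0.075, *Eno1* -0.0068, *Pdhb* 0.054, *Dld* 0.12, *Aco1* -0.041, *Idh3a* 0.057, *Idh3g* 0.059, *Suclg2* 0.012, *Me2* 0.085 and the log2 ratio of *Pdk3* to *Pdk1* 0.071, none of them called. With the replicate block added, the 11 genes kept these values. The loess that is not robust gave *Hk2* -0.19, *Eno1* -0.13, *Pkm* -0.11, *Pdhb* 0.0067, *Dld* 0.12, *Aco1* -0.11, *Idh3a* 0.019 and *Me2* 0.028, with *Eno1* and *Pkm* called lower. Quantile normalization gave *Gapdh* 0.075, *Pgk1* 0.020 and *Me2* 0.051. With a line left out, values crossed 0 for *Aldoc* (-0.44 to 0.34), *Pdk3* (-0.016 to 0.18), *Aco1* (-0.015 to 0.20), *Suclg2* (-0.23 to 0.028), *Idh1* (-0.023 to 0.15), *Got1* (-0.026 to 0.067), *D2hgdh* (-0.26 to 0.30) and *Me2* (-0.070 to 0.036), and for the log2 ratios of *Pfkm* to *Pfkl* (-0.0015 to 0.13), *Aldoc* to *Aldoa* (-0.53 to 0.22) and *Pdk3* to *Pdk1* (-0.35 to 0.036). Few lines limit small differences at low values, as in *Aldoc* and *D2hgdh*, and the reads behind each value were not estimated.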
